A study of Mus musculus with 18 samples.

Results

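The 10 genes described here are Col1a1, Col1a2, Col3a1, Col5a1, Col5a2, Col6a1, Col6a2, Col6a3, Col14a1 and Pdgfra, which are commonly used as marks of connective tissue cells, read in libraries sorted for mammary epithelial cells. They were taken as the rows whose Ensembl identifier carries one of these symbols in the GENCODE M21 annotation, which gave 10 of 52636 gene identifiers. All 10 were among the 16471 genes that passed the filter on low counts. The genes were picked from their levels over the sorted populations and their covariation over samples in these same libraries, so both are described without a test, and tests are given only for other genes. Levels are CPM, a gene's count relative to the library total, scaled by trimmed mean of M values (TMM) factors, and fold changes are the first-named population over the second, with a log2 value and its standard error (SE) from 1 model fitted to all genes.

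The study sorted cells from the mammary glands of 6 untreated nulliparous mice aged 12 weeks, and made bulk RNA sequencing libraries from 3 populations, with 6 libraries in each. Hormone-sensing luminal cells (HSL), the population positive for hormone receptors, were low for CD49f and negative for CD61. Alveolar progenitors (AP), also known as luminal progenitors, were low for CD49f and positive for CD61. Basal cells, the outer contractile layer, were high for CD49f and positive for CD61. EpCAM was stained as well, together with CD31, CD45 and Ter119 as lineage markers. None of the antibodies named here is given as a marker of fibroblasts. Every animal carried an MMTV-Cre transgene, in which a mouse mammary tumour virus promoter drives the Cre recombinase, so a group without the transgene was not compared. Libraries with the same sample number, 1 to 6, are treated as cells of the same animal.

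Fibrillar collagens are the ropes of connective tissue: alpha chains wind into a helix, are trimmed outside the cell and pack into fibrils. Type I is built from the Col1a1 and Col1a2 chains, type III from Col3a1 alone, and type V, from Col5a1 and Col5a2, sits inside type I fibrils and limits their width. Type VI, whose usual chains are Col6a1, Col6a2 and Col6a3, forms beaded filaments next to cells, and type XIV, from Col14a1, lies on the surface of fibrils. Pdgfra encodes a receptor for platelet-derived growth factor that marks fibroblasts in many tissues. In the mammary gland these matrix genes are best known from the fibroblasts around the ducts, while basal cells lay down much of the basement membrane.

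Total counts per library were 26515200 to 52403133 in HSL, 37390477 to 62503032 in AP and 29898247 to 91092224 in basal libraries, and the smallest count behind any value given for the 10 genes was 4, for Col14a1 in 1 HSL library. The labels were checked against markers. The summed level of 8 hormone-sensing markers was 4884 to 6171 CPM in HSL, 538 to 1981 CPM in AP and 147 to 333 CPM in basal libraries. The sum of 8 alveolar progenitor markers was 576 to 1446 CPM in HSL, 5211 to 12315 CPM in AP and 211 to 402 CPM in basal libraries, and that of 9 basal markers was 36.6 to 172 CPM in HSL, 95.0 to 288 CPM in AP and 24804 to 45258 CPM in basal libraries. Sample 1 stood apart in each population. Its HSL library had 97.3 CPM of the progesterone receptor gene Pgr, against 340 to 532 CPM in the other 5, its HSL leukocyte marker sum was 136 CPM against 2.05 to 38.7 CPM, and its AP and basal libraries had the lowest alveolar progenitor and basal marker sums of their populations. Tnfsf11, 1 of the 8 hormone-sensing markers, had 592 CPM in HSL sample 1 and 0.132 to 6.33 CPM in the other 5 HSL libraries. It is part of the sum of 4884 CPM in HSL sample 1. Values without sample 1 stand beside the fold changes it moved most. Correlations include it unless stated.

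Sequences upstream of the start site are shown for genes whose levels moved together, Col1a2 and Col3a1, and for the chains of type VI collagen, whose levels parted between populations. Each run is the 250 bases before the RefSeq start site on GRCm38.p6, 5′ to 3′ on the gene's strand. Capitals mark matches on either strand to CCAAT (the box of that name), to TATAAA (the TATA box) or to GGGCGG (the GC box); no match to the oestrogen response element GGTCANNNTGACC was found.
Col1a2, chr6:4505368-4505617, plus strand: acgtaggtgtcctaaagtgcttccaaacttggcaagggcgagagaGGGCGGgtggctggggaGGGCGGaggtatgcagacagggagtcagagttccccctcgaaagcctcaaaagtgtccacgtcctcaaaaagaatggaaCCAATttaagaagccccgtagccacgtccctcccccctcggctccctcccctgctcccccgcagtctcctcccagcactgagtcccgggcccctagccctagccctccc
Col3a1, chr1:45311288-45311537, plus strand: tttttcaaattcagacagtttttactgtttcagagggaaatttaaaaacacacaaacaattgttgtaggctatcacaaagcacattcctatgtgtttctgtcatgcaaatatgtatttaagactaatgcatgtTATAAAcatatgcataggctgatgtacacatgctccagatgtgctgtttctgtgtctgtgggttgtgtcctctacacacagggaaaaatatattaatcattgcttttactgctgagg
Col6a1, chr10:76726045-76726294, minus strand: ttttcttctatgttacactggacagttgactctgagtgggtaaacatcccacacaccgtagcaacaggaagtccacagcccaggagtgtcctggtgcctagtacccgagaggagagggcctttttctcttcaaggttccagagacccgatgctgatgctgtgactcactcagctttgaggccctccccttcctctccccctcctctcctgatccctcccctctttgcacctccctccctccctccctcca
Col6a2, chr10:76623631-76623880, minus strand: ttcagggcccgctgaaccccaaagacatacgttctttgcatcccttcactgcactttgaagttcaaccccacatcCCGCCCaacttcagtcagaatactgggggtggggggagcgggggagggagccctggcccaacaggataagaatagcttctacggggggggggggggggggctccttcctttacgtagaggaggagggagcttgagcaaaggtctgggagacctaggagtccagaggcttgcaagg
Col6a3, chr1:90843972-90844221, minus strand: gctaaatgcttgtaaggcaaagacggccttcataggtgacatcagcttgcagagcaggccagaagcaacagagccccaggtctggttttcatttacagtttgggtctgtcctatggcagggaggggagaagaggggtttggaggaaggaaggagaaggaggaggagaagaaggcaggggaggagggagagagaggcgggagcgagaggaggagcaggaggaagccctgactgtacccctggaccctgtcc

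Col1a2 had 1 CCAAT and 2 GC box matches, Col3a1 had 1 TATA box match on a window of 35.2% G and C, and Col6a2 had 1 GC box match, written CCGCCC where it lies on the other strand. The Col6a1 and Col6a3 windows held none of these letters. Of all 32841 windows of the same length, 33.9% held CCAAT, 12.4% TATAAA, 32.7% GGGCGG and 0.0639% the oestrogen response element, with a median of 52.4% G and C. RefSeq windows were matched for 7 of the 10 genes; Col5a1 had 2 GC box matches and Pdgfra none, and Col1a1, Col5a2 and Col14a1 had no entry in the table. A match is a run of letters and not a binding site.

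The 10 genes fell into 3 orders over the populations. Col1a1, Col1a2, Col3a1 and Pdgfra were highest in AP and lowest in HSL. Col5a1, Col5a2, Col6a1, Col6a2 and Col14a1 were highest in basal libraries and lowest in HSL. Col6a3 alone was highest in HSL and lowest in basal libraries. HSL and AP libraries did not overlap for 9 of the 10 genes, where 20.6% of all tested genes did not overlap, HSL and basal libraries did not overlap for 9 of 10 (36.9% of all tested genes), and AP and basal libraries for 5 of 10 (25.9%). These contrasts were used to pick the genes, so the counts describe them and carry no test; at an adjusted p under 0.05 the same fit called 39.9, 58.4 and 44.7% of all tested genes in these comparisons. In bulk libraries fewer cells of a type and less RNA per cell cannot be told apart.

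**Figure D1:**
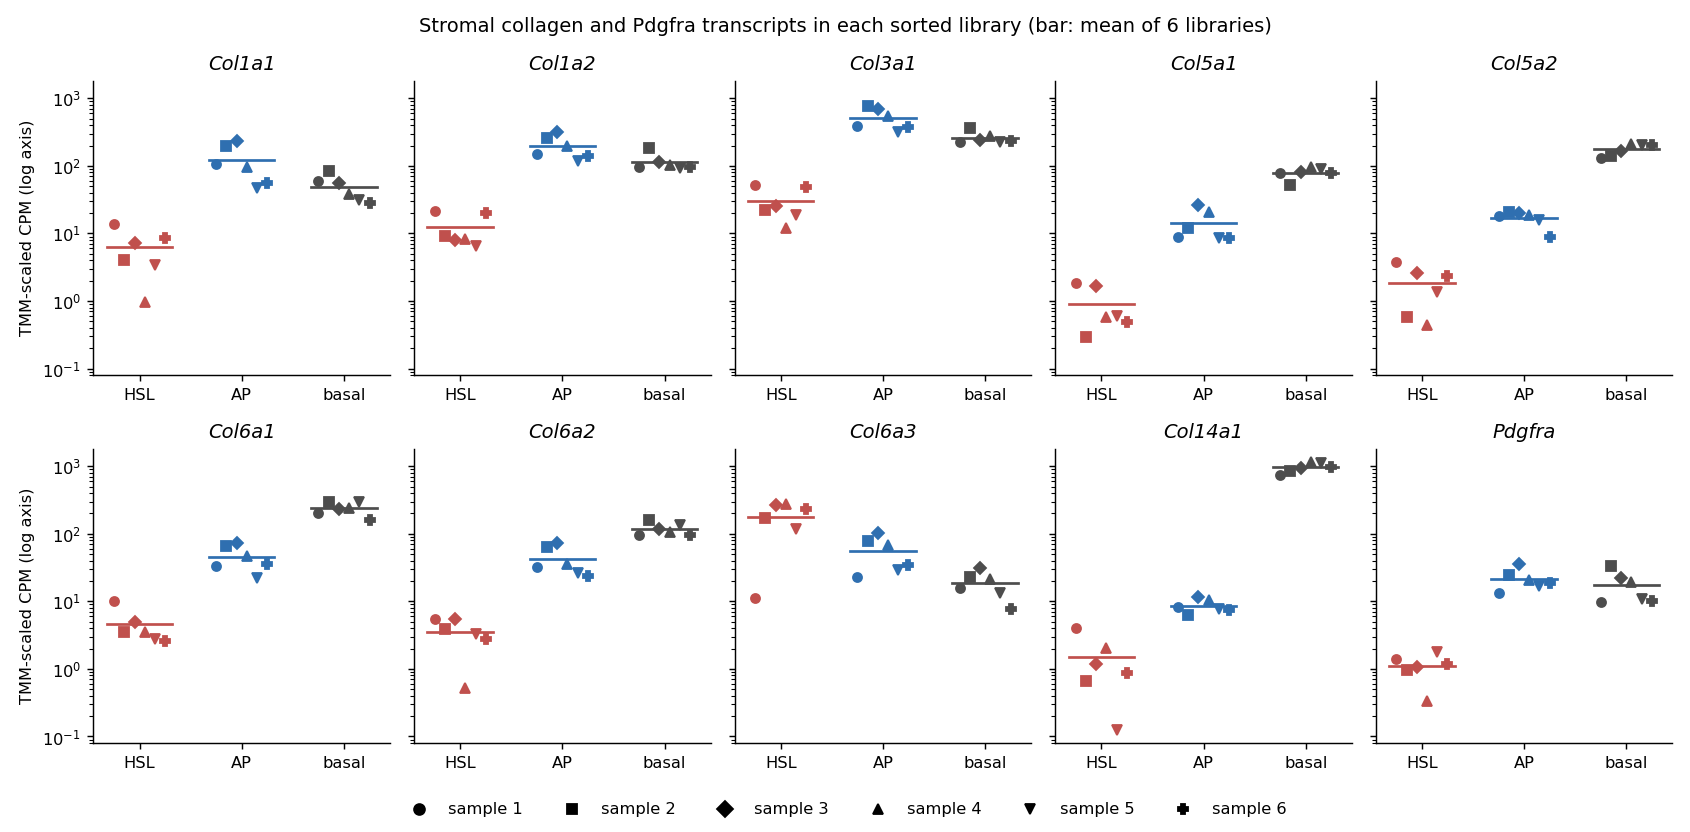
Each panel is 1 gene, with TMM-scaled CPM on a log axis against population; symbols mark samples 1 to 6 and bars the mean of 6 libraries. HSL libraries lie below AP and basal ones for every gene but Col6a3, whose HSL library of sample 1 (11.3 CPM) lies far below the other 5 (116 to 273 CPM).

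Col1a1 (chr11:94936224-94953042, plus strand) and Col1a2 (chr6:4504814-4541544, plus strand), the chains of type I collagen, were both highest in AP. Col1a1 had 14, 4.09, 7.26, 0.969, 3.42 and 8.60 CPM in HSL libraries of samples 1 to 6, 105, 199, 231, 97.1, 46.3 and 56.5 CPM in AP, and 59.2, 82.9, 55.2, 38.1, 30.9 and 28.6 CPM in basal libraries. Every HSL library was below every AP and basal library, while AP samples 5 and 6 lay within the basal range. Within each of the 6 samples AP was above basal, by 1.5 to 4.19 times. The fitted difference was log2 -4.26 ± 0.56 (SE) for HSL against AP, -2.94 ± 0.53 for HSL against basal and 1.32 ± 0.50 for AP against basal, and without sample 1 these were -4.74, -3.32 and 1.42.

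Col1a2 had 21.4, 9.24, 8.13, 8.17, 6.62 and 20.1 CPM in HSL, 150, 262, 316, 196, 119 and 140 CPM in AP, and 96.3, 185, 116, 104, 92.7 and 97.4 CPM in basal libraries. The order was the same as for Col1a1, and basal sample 2 was the only basal library inside the AP range. AP exceeded basal by 1.28 to 2.73 times within samples, and the fitted difference was log2 -4.00 ± 0.35 for HSL against AP, -3.23 ± 0.34 for HSL against basal and 0.77 ± 0.31 for AP against basal (-4.34, -3.54 and 0.80 without sample 1). Col3a1 (chr1:45311538-45349706, plus strand), the chain of type III collagen that mixes with type I in soft tissue, had 51.4, 22.4, 25.9, 12.0, 18.7 and 49.0 CPM in HSL, 387, 758, 700, 556, 317 and 381 CPM in AP, and 227, 360, 238, 281, 224 and 233 CPM in basal libraries. AP was 1.42 to 2.94 times basal within each of the 6 samples, although AP sample 5 lay below basal sample 2. Its log2 difference was -4.11 ± 0.35 for HSL against AP, -3.12 ± 0.33 for HSL against basal and 0.99 ± 0.31 for AP against basal (-4.43, -3.41 and 1.03 without sample 1).

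Col5a1 (chr2:27886425-28039514, plus strand) and Col5a2 (chr1:45374321-45503282, minus strand), the type V chains, did not follow type I: both were highest in basal libraries and the 3 populations did not overlap. Col5a1 had 1.85, 0.290, 1.66, 0.573, 0.596 and 0.494 CPM in HSL, 8.72, 12.2, 26.2, 20.7, 8.66 and 8.68 CPM in AP, and 79.1, 52.1, 79.9, 96.1, 88.4 and 77.7 CPM in basal libraries. Col5a2 had 3.74, 0.581, 2.64, 0.440, 1.35 and 2.35 CPM in HSL, 17.9, 20.7, 20.4, 18.5, 15.8 and 8.73 CPM in AP, and 129, 139, 165, 212, 206 and 203 CPM in basal libraries. For AP against basal, log2 was -2.47 ± 0.39 for Col5a1 and -3.37 ± 0.40 for Col5a2, opposite in sign to Col1a1, Col1a2 and Col3a1. HSL against basal gave -6.41 ± 0.48 for Col5a1 and -6.56 ± 0.47 for Col5a2, and without sample 1 these were -6.78 and -7.03. Col5a2 and Col3a1 are neighbours on chromosome 1, 24.6 kb apart on opposite strands, and were highest in different populations.

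Col6a1 (chr10:76708792-76726168, minus strand) and Col6a2 (chr10:76595762-76623630, minus strand) lie 85.2 kb apart and had the same order, basal over AP over HSL, with no overlap between populations. Col6a1 had 10.2, 3.53, 5.01, 3.46, 2.73 and 2.55 CPM in HSL, 32.9, 65.8, 72.6, 46.5, 21.9 and 35.9 CPM in AP, and 202, 296, 236, 243, 300 and 161 CPM in basal libraries. Col6a2 had 5.52, 3.87, 5.51, 0.528, 3.23 and 2.76 CPM in HSL, 31.8, 62.8, 73.7, 35.7, 25.9 and 23.8 CPM in AP, and 95.9, 161, 116, 107, 133 and 95.6 CPM in basal libraries. AP against basal was log2 -2.38 ± 0.34 for Col6a1 and -1.48 ± 0.39 for Col6a2. HSL against basal was log2 -5.69 ± 0.40 for Col6a1 (-6.17 without sample 1) and -5.04 ± 0.45 for Col6a2 (-5.29 without sample 1).

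Col6a3 (chr1:90765923-90843971, minus strand), the longest type VI chain and the one whose cleaved end is known as endotrophin, ran the other way. It had 11.3, 170, 271, 273, 116 and 234 CPM in HSL, 23.0, 77.9, 101, 68.7, 29.3 and 34.6 CPM in AP, and 16.0, 23.3, 31.2, 21.3, 13.4 and 7.77 CPM in basal libraries. HSL was above AP and basal in 5 of 6 samples, and in sample 1 it was below both. The mean in HSL was 179 ± 102 CPM (SD, n = 6) with sample 1 and 213 ± 68.3 CPM (n = 5) without it. AP was above basal in all 6 samples, by 1.44 to 4.45 times. The fitted difference was log2 1.68 ± 0.54 for HSL against AP, 3.25 ± 0.57 for HSL against basal and 1.57 ± 0.54 for AP against basal, and 1.75, 3.43 and 1.68 without sample 1.

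Levels of different chains were compared per length, as CPM per kb of the union of annotated exons. The ratio of Col6a3 to Col6a1 was 0.403, 17.7, 19.8, 29.0, 15.5 and 33.5 in HSL, 0.255 to 0.542 in AP and 0.0164 to 0.0483 in basal libraries. Col6a3 was therefore the more abundant chain in 5 HSL libraries, and Col6a1 in HSL sample 1 and in every AP and basal library; the same held with the longest transcript as length. Col6a2 over Col6a1 had a median of 0.572 in HSL, 0.505 in AP and 0.254 in basal libraries, and of 0.908, 0.802 and 0.403 in the same order per longest transcript. Col5a1 over Col1a1 had a median of 0.118 in HSL (0.0444 to 0.457), 0.103 in AP (0.0475 to 0.165) and 1.53 in basal libraries (0.486 to 2.21), so every basal library was above every HSL and AP library. Col1a2 over Col1a1 was 0.592 to 4.45 in HSL, 0.693 to 1.35 in AP and 0.860 to 1.80 in basal libraries and overlapped throughout. Its level depends on the length used, with a median of 1.11 in HSL, 0.908 in AP and 1.31 in basal libraries per exon union, and 2.33, 1.91 and 2.75 in the same order per longest transcript.

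**Figure D2:**
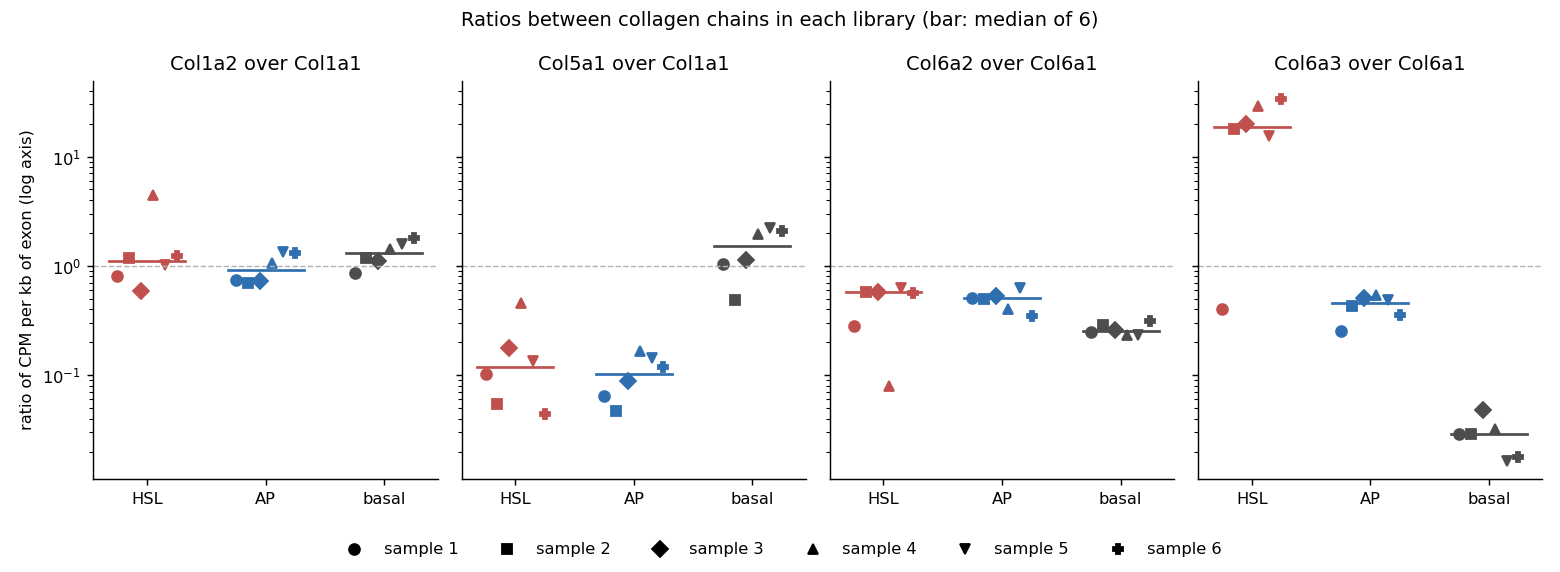
Ratios between chains in each library, from CPM per kb of exon on a log axis; symbols mark samples, bars the median of 6 and the dashed line a ratio of 1. Col6a3 over Col6a1 separates HSL (15.5 to 33.5, apart from 0.403 in sample 1) from AP (0.255 to 0.542) and basal libraries (0.0164 to 0.0483), and Col5a1 over Col1a1 separates basal libraries from the other populations.

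Col14a1 (chr15:55307750-55520803, plus strand), the fibril-associated chain, was the most uneven of the 10. It had 4, 0.653, 1.18, 2.03, 0.125 and 0.864 CPM in HSL, 8.25, 6.18, 11.5, 10.3, 7.64 and 7.53 CPM in AP, and 747, 841, 947, 1141, 1102 and 969 CPM in basal libraries. The populations did not overlap, and AP was log2 -6.80 ± 0.52 against basal. HSL against basal was log2 -9.29 ± 0.58, or -9.98 without sample 1, which had the highest of the HSL values. In basal libraries Col14a1 stood at 137 ± 21.4 CPM per kb of exon (SD, n = 6), above Col6a1 (54.7 ± 12.3), Col3a1 (26.6 ± 5.42) and Col5a2 (18.3 ± 3.80).

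Pdgfra (chr5:75152292-75198215, plus strand) had the same order as the type I genes, with AP and basal libraries overlapping. It had 1.41, 0.968, 1.07, 0.330, 1.76 and 1.19 CPM in HSL, 13.1, 24.2, 35.8, 20.5, 17.1 and 18.9 CPM in AP, and 9.61, 33.4, 22.1, 19.0, 11 and 10.1 CPM in basal libraries. HSL lay below both other populations in every sample, while AP was above basal in 5 of 6 samples and the reverse held in sample 2. The fitted difference was log2 -4.27 ± 0.41 for HSL against AP, -3.97 ± 0.41 for HSL against basal and 0.30 ± 0.36 for AP against basal.

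Within AP the genes moved together over samples. All 45 pairs of the 10 genes had a positive Pearson r over the 6 AP libraries (log2 CPM, median 0.77, lowest 0.19), and sample 3 had the highest AP level for 8 of the 10 genes and sample 2 for the other 2. In HSL 34 of 45 pairs were positive (median 0.42), sample 1 had the highest level for 8 of the 10 genes and the lowest for Col6a3, and Col6a3 had a negative Pearson r with each of the other 9 (-0.79 with Col6a1 to -0.38 with Col14a1). That sign rested on sample 1: Spearman rho was -0.26 with Col6a1 and 0.14 with Col14a1, and over the 5 HSL libraries without sample 1 Pearson r was negative for 3 of the 9, at -0.65 with Pdgfra to 0.96 with Col14a1. Without sample 1, 33 of 45 HSL pairs were positive (median 0.23). In basal libraries 26 of 45 pairs were positive (median 0.43): Col1a2 went with Col3a1 (r = 0.91) and Pdgfra (0.88), and Col5a2 with Col14a1 (0.94). Col1a2 against Col5a1 was -0.89, but Spearman rho was -0.37, with basal sample 2 highest for Col1a2 and lowest for Col5a1. These values rest on 6 libraries each, which are treated as sharing animals between populations, and they describe what the genes were picked for.

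With the population means taken off, the other protein-coding genes at a mean of 5 CPM or more whose log2 CPM went most closely with each gene over 18 libraries were listed among 10306 candidates. For Col1a2 these were Col5a3 (r = 0.85), another type V chain, Efemp1 (0.85), an elastic fibre fibulin, and the fibroblast surface gene Cd248 (0.83). For Col3a1 they were Efemp1 (0.91), Fstl1 (0.86) and the fibronectin gene Fn1 (0.82). For Col6a1 they were Fbln7 (0.88), Rcn3 (0.85) and Spon2 (0.82), and for Col14a1 they included Ptger4 (0.86) and the basement membrane chain Col4a2 (0.81). Col6a3 had a different set, the actin-binding genes Lasp1 (0.94) and Phactr1 (0.94) and the small GTPase gene Rab37 (0.92). Each of these was highest in HSL, at means of 1362 CPM in HSL, 467 CPM in AP and 160 CPM in basal libraries for Lasp1. The r values for Col6a3 include HSL sample 1, at 11.3 CPM of Col6a3 against 116 to 273 CPM in the other HSL libraries. They were not computed without that sample. For the remaining genes the closest were Fam84b (0.85), Satb1 (0.84) and Dgkz (0.83) for Col1a1, Crybg3 (0.80), Arid1b (0.79) and Aebp1 (0.78) for Col5a1, and Abat (0.89), Amd1 (0.86) and Proser1 (0.81) for Col5a2. For Col6a2 they were Ptar1, Sh2b3 and Nutf2 (0.86 each), and for Pdgfra they were Lmx1b (0.82), Spock2 (0.81) and Ago4 (0.81). None of the 10 genes was allowed as a match for another.

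Markers of fibroblasts were read beside the 10 genes. Of 14 fibroblast markers 13 were tested and Tcf21, which lies wholly inside another gene's span, was at 0 in every library. The sum of the 14 was 28.1 to 87.5 CPM in HSL, 186 to 600 CPM in AP and 327 to 608 CPM in basal libraries. HSL against AP gave 0 higher, 11 lower and 2 not called of 13, with a median log2 of -3.32 against -0.01 over all genes, of which 39.9% were called, 19.8% higher and 20.1% lower. HSL against basal gave 1 higher, 10 lower and 2 not called, with a median of -3.78 against -0.06 over all genes (58.4% called, 27.8% higher and 30.6% lower). AP against basal gave 5 higher, 3 lower and 5 not called, with a median of 0.54 against 0.00 (44.7% called, 21.5% higher and 23.1% lower).

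The markers did not form a single pattern. Lum, a small proteoglycan of collagen fibrils, averaged 1.19 ± 0.465 CPM in HSL, 39.4 ± 12.5 CPM in AP and 16.4 ± 6.29 CPM in basal libraries (SD, n = 6 each) and was higher in AP than in basal libraries (log2 1.26 ± 0.28, adjusted p = 0.00121, edgeR quasi-likelihood test). Pi16, a marker of adventitial fibroblasts, was higher in AP as well (log2 1.22 ± 0.36, adjusted p = 0.0102, and up to 0.0557 with 1 sample left out). Prrx1, a mesenchymal transcription factor, averaged 0.367 ± 0.338 CPM in HSL, 1.24 ± 0.875 CPM in AP and 14.4 ± 4.07 CPM in basal libraries and was lower in AP than in basal libraries (log2 -3.53 ± 0.62, adjusted p = 0.000126). Dcn, another fibril proteoglycan, was also lower in AP (log2 -1.46 ± 0.30, adjusted p = 0.000654). Scara5 had 55.8 CPM in HSL sample 1 and 7.29 to 26.5 CPM in the other HSL libraries, and averaged 184 ± 76.7 CPM in AP and 6.67 ± 2.25 CPM in basal libraries. It was the only marker of the list called higher in HSL than in basal libraries (log2 1.86 ± 0.44, adjusted p = 0.0014). Without sample 1 the Scara5 means were 17.9 CPM in HSL and 7.24 CPM in basal libraries. Of the markers named, 19.9% of the span of Pi16 and 15.7% of that of Prrx1 is shared with another gene.

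Without Dcn and Scara5, the most abundant of the list in HSL and AP, the fibroblast marker sum was 2.51 to 10.9 CPM in HSL, 60.9 to 132 CPM in AP and 52.0 to 96.9 CPM in basal libraries. That removal was chosen after the values were seen. The summed level of Col1a1, Col1a2 and Col3a1 was 21.2 to 86.9 CPM in HSL, 482 to 1247 CPM in AP and 347 to 629 CPM in basal libraries, and was highest in the same samples as the reduced marker sum in HSL (sample 1) and in basal libraries (sample 2), while AP samples 2 and 3 led both in AP. Over the 6 AP libraries the sum of the 10 genes went with the sum of all 14 markers at Pearson r = 0.85 and Spearman rho = 0.83 (r = 0.94 without the 2 libraries farthest from the median marker sum). In HSL r was -0.72 and rho -0.60, and r was -0.30 without 2 libraries, and in basal libraries r was 0.17 and rho 0.14, with 0.86 without 2. In 5 of 6 HSL libraries Col6a3 made up most of the sum of the 10, and with Col1a1, Col1a2 and Col3a1 alone r was 0.65. With Dcn and Scara5 left out of the markers, r of the 10-gene sum was -0.35 in HSL, 0.97 in AP and 0.66 in basal libraries, and without 2 libraries 0.74, 0.97 and 0.42 in that order. No p is given for sums over genes chosen on these samples, and the part of fibroblast RNA in the levels of the 10 genes was not tested.

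**Figure D3:**
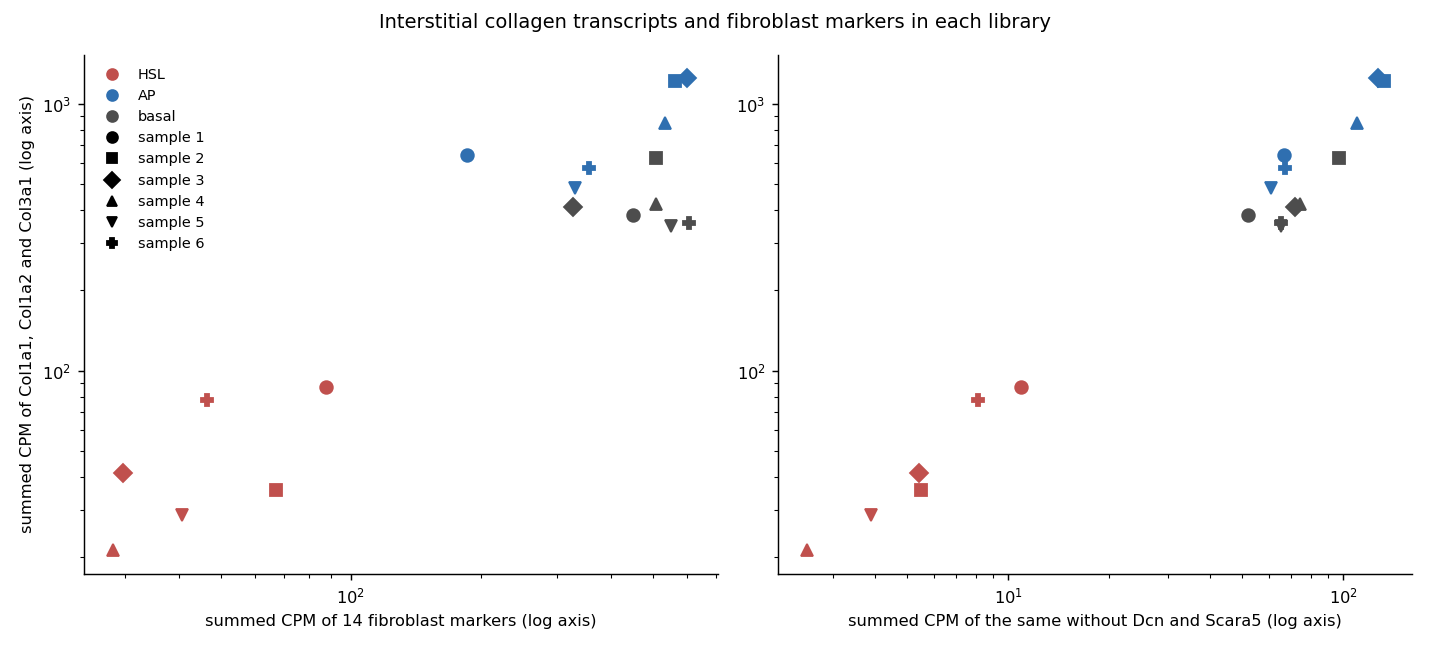
Each point is 1 library, with the summed CPM of Col1a1, Col1a2 and Col3a1 against the summed CPM of fibroblast markers, both on log axes; colours are populations and symbols samples. HSL libraries lie low on both axes (21.2 to 86.9 CPM of the 3 collagens), and AP samples 2 and 3 lie highest (1218 and 1247 CPM).

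Markers of other cells that a sort could carry were read in the same way. Endothelial markers summed to 14.3 to 47.8 CPM in HSL, 27.2 to 97.4 CPM in AP and 82.4 to 250 CPM in basal libraries, and all 10 were called lower in HSL and in AP than in basal libraries. Pericyte markers gave 0 called of 7 for HSL against AP, 1 higher and 6 lower for HSL against basal (median log2 -2.71), and 1 higher, 5 lower and 1 not called for AP against basal (-1.96). Their sum, 77.3 to 151 CPM in HSL, 88.3 to 192 CPM in AP and 36.2 to 78.9 CPM in basal libraries, ran the other way, and most of it in HSL and AP was Notch3, a receptor gene with 45.7% of its span shared with another gene, at 104 ± 23.8 CPM in HSL, 115 ± 36.8 CPM in AP and 11 ± 3.97 CPM in basal libraries. Adipocyte markers summed to 10.6 to 59.1 CPM in HSL, 25.4 to 123 CPM in AP and 95.2 to 302 CPM in basal libraries. Most of that sum was Fabp4, a fatty acid binding protein gene, at 30.6 ± 16 CPM in HSL, 53 ± 32.9 CPM in AP and 177 ± 67.6 CPM in basal libraries. It was the 1 of 3 tested adipocyte markers called lower in HSL and in AP than in basal libraries. Every other marker of that list averaged at most 3.55 CPM in a population, for Lep in basal libraries. Adipoq averaged 0.0441 CPM in HSL, 0.104 CPM in AP and 0.138 CPM in basal libraries, and Plin1 0.0404, 0.0868 and 0.163 CPM in that order. Schwann cell markers summed to 111 to 125 CPM in HSL, 292 to 661 CPM in AP and 192 to 268 CPM in basal libraries. Leukocyte markers summed to 2.05 to 136 CPM in HSL, 2.46 to 85.3 CPM in AP and 30.6 to 191 CPM in basal libraries, with sample 1 highest in each population. No marker of these lists was at 0 in all libraries, and their part in the levels of the 10 genes was not tested.

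Genes of the sort gates were read as a check of the same libraries. Itgb3, which encodes CD61, averaged 0.734 ± 0.508 CPM in HSL, 44.7 ± 23.3 CPM in AP and 97.6 ± 18 CPM in basal libraries, and was lower in HSL than in AP (log2 -5.89 ± 0.49, adjusted p = 1.78e-07, and log2 -6.52 without sample 1). Itga6, which encodes CD49f and shares 11.4% of its span with other genes, was lower in AP than in basal libraries (log2 -1.64 ± 0.17, adjusted p = 3.61e-07). Epcam was higher in AP than in basal libraries (log2 2.71 ± 0.28, adjusted p = 2.49e-07). Pecam1, the gene of the endothelial antigen CD31, was lower in HSL than in basal libraries (log2 -2.24 ± 0.34, adjusted p = 1.55e-05). Ptprc, the gene of CD45, averaged 4.25 ± 6.75 CPM in HSL, 3.16 ± 4.30 CPM in AP and 7.36 ± 5.79 CPM in basal libraries and was called in no comparison. Sample 1 had 17.7 CPM of Ptprc in HSL and 11.3 CPM in AP, and without it the means were 1.57 CPM in HSL and 1.53 CPM in AP.

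Other collagen genes were read from lists that hold none of the 10. Counts of these and the later lists stand beside the shares called over all tested genes. These were 19.8% higher and 20.1% lower for HSL against AP, and 27.8% higher and 30.6% lower for HSL against basal. For AP against basal they were 21.5% higher and 23.1% lower. Of 6 other fibrillar collagen genes 5 were tested, with 0 higher, 3 lower and 2 not called for HSL against AP, 0 higher, 4 lower and 1 not called for HSL against basal, and 0 higher, 2 lower and 3 not called for AP against basal. Col11a1, a chain that mixes with type V, averaged 1.96 ± 0.789 CPM in HSL, 33.3 ± 11.3 CPM in AP and 25.9 ± 13.1 CPM in basal libraries and was lower in HSL than in AP (log2 -4.08 ± 0.42, adjusted p = 1.03e-06). Col5a3 had a like order, with 1.77 ± 1.27 CPM in HSL, 17.7 ± 7.46 CPM in AP and 11.3 ± 3.79 CPM in basal libraries, and AP and basal libraries gave an adjusted p of 0.267 (log2 0.65 ± 0.45). Col2a1, the cartilage chain, was at 0 in all HSL and AP libraries and averaged 1.03 ± 1.09 CPM in basal libraries, at least 12.5-fold lower in HSL and 17-fold lower in AP against a floor of 3 counts per library. Basal sample 4 had 3.07 CPM, and without it the basal mean was 0.625 CPM and these bounds were 7.6-fold in HSL and 10.3-fold in AP. The list's median log2 was -2.80 for HSL against AP (-3.06 without Col2a1), -3.72 for HSL against basal (-3.65 with Col2a1 at its bound) and -1.95 for AP against basal.

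Among 17 other interstitial collagen genes 11 were tested and each comparison gave 2 higher, 7 lower and 2 not called, with a median log2 of -2.54 for HSL against AP, -4.99 for HSL against basal and -1.63 for AP against basal. Col16a1, a fibril-associated chain, averaged 14.6 ± 5.71 CPM in HSL, 117 ± 38.5 CPM in AP and 1401 ± 276 CPM in basal libraries and was lower in AP than in basal libraries (log2 -3.59 ± 0.28, adjusted p = 8.45e-09). Col12a1, a close relative of Col14a1, averaged 0.309 ± 0.191 CPM in HSL, 7.39 ± 2.40 CPM in AP and 80.6 ± 35.8 CPM in basal libraries, with log2 -3.45 ± 0.42 for AP against basal (adjusted p = 2.22e-06). Col6a4, a further type VI chain, was lower in AP than in basal libraries (log2 -7.94 ± 0.82, adjusted p = 3.09e-07) at 0.0867 ± 0.117 CPM in AP and 22.6 ± 7.28 CPM in basal libraries, and without sample 1 the AP mean was 0.0465 CPM and log2 -8.76. Col8a1, a network-forming chain named after its values were seen, shared the order of Col6a3: it averaged 215 ± 100 CPM in HSL, 42.8 ± 28.1 CPM in AP and 8.77 ± 4.05 CPM in basal libraries and was higher in HSL than in AP (log2 2.33 ± 0.44, adjusted p = 0.000362).

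Of 13 basement membrane and membrane-bound collagen genes 12 were tested, with 0 higher, 10 lower and 2 not called for HSL against AP, 0 higher and 12 lower for HSL against basal, and 0 higher, 8 lower and 4 not called for AP against basal. The median log2 was -2.22, -4.94 and -2.53 in that order. Col4a1, a main chain of basement membranes, averaged 13.7 ± 7.80 CPM in HSL, 80.9 ± 10.8 CPM in AP and 1007 ± 252 CPM in basal libraries (log2 -3.64 ± 0.30 for AP against basal, adjusted p = 1.61e-08). Col7a1, the anchoring fibril chain, averaged 1.22 ± 0.352 CPM in HSL, 1.36 ± 0.690 CPM in AP and 189 ± 74.0 CPM in basal libraries (log2 -7.13 ± 0.41 for AP against basal, adjusted p = 2.45e-10).

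Collagen chains are hydroxylated, folded and escorted by enzymes and chaperones of the endoplasmic reticulum, and 20 such genes were tested. HSL against AP gave 7 higher, 7 lower and 6 not called (median log2 0.15), HSL against basal 5 higher, 13 lower and 2 not called (-1.18), and AP against basal 2 higher, 14 lower and 4 not called (-1.02). P3h3, a prolyl 3-hydroxylase family member, was lower in AP than in basal libraries at 7.73 ± 1.00 CPM in AP and 58.5 ± 9.97 CPM in basal libraries (log2 -2.92 ± 0.16, adjusted p = 1.3e-10). Fkbp10, a collagen chaperone with 27.4% of its span shared, averaged 17 ± 3.44 CPM in HSL, 15.7 ± 3.92 CPM in AP and 107 ± 7.11 CPM in basal libraries (log2 -2.77 ± 0.17 for AP against basal, adjusted p = 3.35e-10). Colgalt2, which adds galactose to hydroxylysine, was lower in AP than in basal libraries too (log2 -5.21 ± 0.38, adjusted p = 3.8e-09). So 14 of these 20 genes were lower in AP than in basal libraries, where 23.1% of all tested genes were called lower. Col1a1, Col1a2 and Col3a1, by contrast, were higher in AP in each of the 6 samples.

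Plod1, a lysyl hydroxylase, went the other way and was highest in HSL, at 332 ± 99.6 CPM in HSL, 73.7 ± 35.8 CPM in AP and 102 ± 12.4 CPM in basal libraries (log2 2.17 ± 0.28 for HSL against AP, adjusted p = 1.07e-05, and 1.71 ± 0.28 for HSL against basal, adjusted p = 3.94e-05). P4hb, the shared subunit of the prolyl 4-hydroxylases, was higher in HSL than in AP (log2 0.76 ± 0.13, adjusted p = 0.000149). A further 3 genes were named after their values were seen. P4ha2, a catalytic subunit of prolyl 4-hydroxylase, averaged 208 ± 135 CPM in HSL, 47.1 ± 28.4 CPM in AP and 20.7 ± 9.71 CPM in basal libraries and was higher in HSL than in AP (log2 2.14 ± 0.46, adjusted p = 0.00125) and than in basal libraries (3.33 ± 0.49, adjusted p = 1.15e-05). Serpinh1, the collagen chaperone HSP47, averaged 44.6 ± 50.5 CPM in HSL, 248 ± 111 CPM in AP and 1285 ± 411 CPM in basal libraries and was lower in HSL than in AP (log2 -2.47 ± 0.48, adjusted p = 0.000474). Its HSL library of sample 1 had 147 CPM and the other 5 had 18.6 to 32.9 CPM, and without sample 1 the difference was log2 -3.11. Creb3l1, a transcription factor of the secretory pathway that acts on type I collagen genes, was higher in AP than in basal libraries (log2 2.79 ± 0.46, adjusted p = 6.29e-05). It averaged 9.31 ± 2.18 CPM in HSL, 17 ± 6.26 CPM in AP and 2.46 ± 1.44 CPM in basal libraries. Creb3l1, Col1a1 and Col1a2 all had their highest mean in AP. The lowest mean was in basal libraries for Creb3l1 and in HSL for Col1a1 and Col1a2. A link between Creb3l1 and these genes was not tested.

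**Figure D4:**
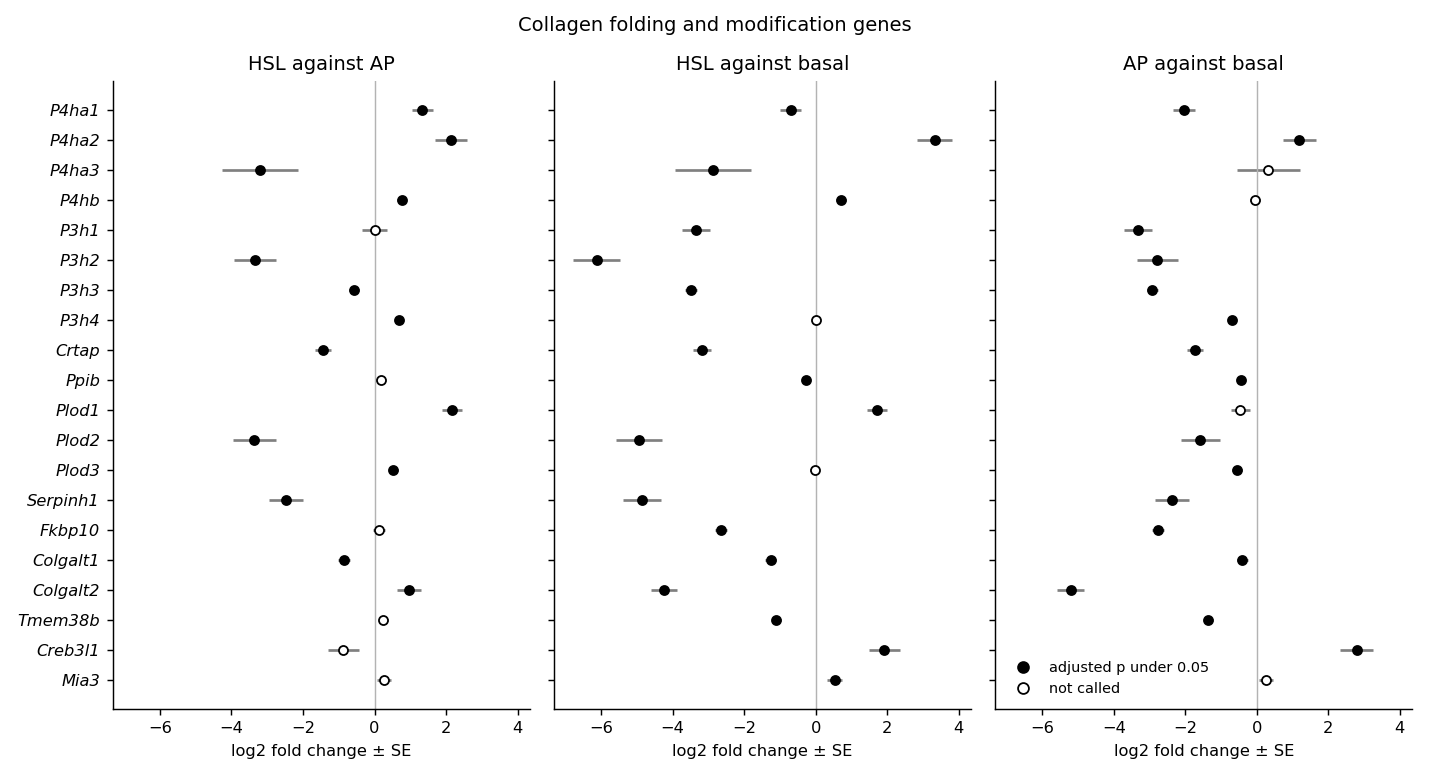
Log2 fold change with its SE for 20 collagen folding and modification genes in the 3 comparisons; filled points have an adjusted p under 0.05 and open points do not. HSL against AP has 7 filled points on each side of 0, while AP against basal has 14 below 0 and 2 above.

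Outside the cell, propeptides are cut off and fibrils are crosslinked. Of 12 genes of these steps, HSL against AP gave 1 higher, 8 lower and 3 not called (median log2 -2.81), HSL against basal 0 higher, 10 lower and 2 not called (-2.83), and AP against basal 2 higher, 4 lower and 6 not called (-0.91). Loxl3, a lysyl oxidase, averaged 1.03 ± 0.450 CPM in HSL, 3.24 ± 0.585 CPM in AP and 119 ± 13.1 CPM in basal libraries (log2 -5.20 ± 0.25 for AP against basal, adjusted p = 2.66e-11). Adamts2, which removes the amino propeptide of fibrillar collagens, was lower in AP than in basal libraries (log2 -3.27 ± 0.37, adjusted p = 9.06e-07), whereas its relative Adamts3 was higher in AP, at 6.45 ± 4.24 CPM in HSL, 36.5 ± 7.27 CPM in AP and 8.42 ± 2.91 CPM in basal libraries (log2 2.12 ± 0.33 for AP against basal, adjusted p = 3.44e-05). Bmp1, which removes the carboxyl propeptide, was higher in HSL than in AP (log2 1.42 ± 0.16, adjusted p = 2.04e-06) and below basal libraries in HSL (-0.59 ± 0.16, adjusted p = 0.0032).

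Of 14 fibril-binding matrix genes 12 were tested and Ogn and Aspn, which lie wholly inside another gene's span, were at 0 in every library. HSL against AP gave 0 higher, 10 lower and 2 not called (median log2 -3.01), HSL against basal the same counts (-4.44), and AP against basal 2 higher, 6 lower and 4 not called (-1.15). Sparc, a collagen-binding glycoprotein, averaged 29.9 ± 15.5 CPM in HSL, 129 ± 25.7 CPM in AP and 4662 ± 853 CPM in basal libraries (log2 -5.17 ± 0.30 for AP against basal, adjusted p = 2.49e-10). Fmod, a proteoglycan that regulates fibril growth, averaged 0.363 ± 0.169 CPM in HSL, 0.976 ± 0.799 CPM in AP and 417 ± 133 CPM in basal libraries (log2 -8.76 ± 0.56 for AP against basal, adjusted p = 8.07e-10). Lum and Thbs2 were the 2 genes higher in AP, with log2 1.17 ± 0.35 and adjusted p = 0.0108 for Thbs2, a matricellular thrombospondin.

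For breakdown, 6 of 9 collagenase and inhibitor genes were tested, with 1 higher, 3 lower and 2 not called for HSL against AP (median log2 -0.87), 0 higher, 3 lower and 3 not called for HSL against basal (-2.41), and 1 higher, 3 lower and 2 not called for AP against basal (-1.11). Timp1 and Timp3, inhibitors of metalloproteinases inside other genes, were at 0 in every library. Mmp2, a gelatinase, averaged 2.45 ± 1.30 CPM in HSL, 37.7 ± 16.4 CPM in AP and 774 ± 300 CPM in basal libraries (log2 -4.36 ± 0.46 for AP against basal, adjusted p = 4.39e-07). Mmp14, a membrane-bound collagenase, was higher in HSL than in AP at 351 ± 35.6 CPM in HSL and 181 ± 29.4 CPM in AP (log2 0.96 ± 0.12, adjusted p = 8.62e-06).

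Of 11 collagen receptor genes, HSL against AP gave 0 higher, 5 lower and 6 not called (median log2 -0.48), HSL against basal 1 higher, 8 lower and 2 not called (-2.26), and AP against basal 1 higher, 6 lower and 4 not called (-1.20). Antxr1, a receptor that binds type VI and type I collagen, averaged 0.333 ± 0.271 CPM in HSL, 1.89 ± 0.541 CPM in AP and 94.8 ± 10.9 CPM in basal libraries (log2 -8.10 ± 0.42 for HSL against basal, adjusted p = 4.71e-11, and log2 -8.75 without sample 1). Antxr2, its relative, averaged 14 ± 8.91 CPM in HSL, 8.65 ± 1.96 CPM in AP and 67.2 ± 8.30 CPM in basal libraries (log2 -2.26 ± 0.29 for HSL against basal, adjusted p = 2.15e-06). Without sample 1 the Antxr2 means were 10.4 CPM in HSL and 69.2 CPM in basal libraries. The populations with most Antxr1 and most Col6a3 transcript thus differed. Ddr2, a receptor tyrosine kinase for fibrillar collagen, was lower in HSL than in basal libraries (log2 -4.36 ± 0.44, adjusted p = 1.55e-07).

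The PDGF ligand genes and Pdgfrb, the gene of the partner receptor, had their highest means in basal libraries. Of 5 genes, HSL against AP gave 0 higher, 4 lower and 1 not called (median log2 -1.11), HSL against basal 0 higher and 5 lower (-3.23), and AP against basal 0 higher, 4 lower and 1 not called (-1.94). Pdgfa, a Pdgfra ligand gene with 10.8% of its span shared, averaged 10.1 ± 2.79 CPM in HSL, 18.4 ± 1.80 CPM in AP and 116 ± 18.5 CPM in basal libraries (log2 -2.65 ± 0.17 for AP against basal, adjusted p = 8.49e-10). Pdgfc, another Pdgfra ligand, averaged 29.0 ± 16.2 CPM in HSL, 147 ± 31.4 CPM in AP and 208 ± 25.3 CPM in basal libraries, and was lower in HSL than in AP (log2 -2.34 ± 0.27, adjusted p = 2.53e-06). In sample 1 Pdgfc was higher in AP (204 CPM) than in the basal library (171 CPM). Pdgfrb averaged 2.37 ± 2.18 CPM in HSL, 9.82 ± 2.85 CPM in AP and 37.7 ± 7.20 CPM in basal libraries (log2 -1.94 ± 0.61 for AP against basal, adjusted p = 0.0141, and up to 0.0543 with 1 sample left out). Pdgfra itself had means of 1.12 ± 0.479 CPM in HSL, 21.6 ± 7.88 CPM in AP and 17.5 ± 9.32 CPM in basal libraries.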

How the data were processed

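RNA was measured in 18 bulk libraries of sorted mammary cells. Per the labels' protocols, 2 ng of total RNA went into a Smart-Seq v4 reaction and 150 pg of cDNA into Nextera XT, a kit without strand information. The authors deposited whole-number read counts per gene, per the file headers, and RPKM values beside them; the deposited RPKM were not used in any result. The submitters' processing notes name GRCm38 as the build; aligner and counter are not given in the sources used. From 52636 identifiers, 52489 matched GENCODE M21; the other 147 hold 0.00303 to 0.00677% of counts and were left out. The deposited widths match the span from first to last base for 44954 identifiers (85.6%), so lengths were taken from M21 exons. Genes lying wholly inside another gene are often at 0, which does not show that they were not expressed.

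Counts were analysed in edgeR 4.0.16 (R 4.3.3, limma 3.58.1): filterByExpr with a minimum count of 10, TMM scaling, and 1 robust quasi-likelihood fit of 18 libraries with a mean per population. P-values were adjusted by Benjamini-Hochberg over 16471 genes and called under 0.05. The log2 folds are from that fit. Correlations between pairs of the 10 genes used log2 CPM with nothing added. The search for the genes most like each of the 10 used log2 CPM with 0.5 CPM added. Correlations with fibroblast markers used summed CPM. DESeq2 1.42.0 was an alternative; others were DESeq2 size factors, total counts, no filter, a replicate block, samples left out and transcript length. Python 3.11.15 with pandas 2.3.3, scipy 1.17.1 and matplotlib 3.10.9 were used for tables and figures. On counts simulated for 16471 genes, a 4-fold change was recovered in 77% (AP against basal), 82% (HSL against basal) and 71% (HSL against AP) of changed genes, and a 2-fold change in 42, 41 and 30%.

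The same number was taken to mark 1 animal over populations. Deviations of libraries from their population mean correlated between same-numbered libraries at r 0.127 to 0.63 over 18 pairs. Libraries with different numbers were not compared, so these values cannot show that a number is 1 animal. The 10 genes, the lists, the tests and the rule for naming genes were chosen with earlier results of these data known. The rule names all 10 genes, up to 4 called genes with the smallest adjusted p of each list and comparison, sort gate and fibroblast genes, and the 3 genes most like each of the 10, of which 1 is not reported here; exceptions are marked in the text.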

Additional observations from a re-analysis of the deposited data

Results flagged for a closer look

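In 51 groups of 6 libraries, such as a level or chain ratio in 1 population, the highest or lowest library was set against the rest. In 5 groups Dixon's ratio was past 0.625, a value that about 1 in 20 groups pass by chance. The cut-off served only to flag libraries for description and is no test of the 10 genes. Col1a2 in basal sample 2 was 185 CPM, against 92.7 to 116 CPM in the other 5 basal libraries, and that library also had the highest basal level of Col1a1, Col3a1, Col6a2 and Pdgfra. Col6a1 in HSL sample 1 was 10.2 CPM, against 2.55 to 5.01 CPM in the other 5. The other 3 are ratios per length in HSL sample 4 that share 1 low value, Col1a1 at 0.969 CPM: Col1a2 over Col1a1 was 4.45, Col3a1 over Col1a1 was 8.30 and Col5a1 over Col1a1 was 0.457. Per longest transcript these were 9.35, 13.2 and 0.417 in the same order. The cause was not tested.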

How the results depend on the processing

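Recomputed under each alternative, 119 counts and correlations kept their direction and side of the threshold. Genes called fell to 1491 (HSL against AP), 5674 (HSL against basal) and 3718 (AP against basal) with samples 1 to 3 only, and were 7090, 9835 and 7693 with samples 4 to 6 only, against 6571, 9621 and 7356 with all. Of the folding genes 3 were called for HSL against AP with samples 1 to 3 only (14 with all), and of the fibroblast markers 5 for AP against basal with samples 4 to 6 only (8 with all); the cause was not tested. With 1 sample left out, genes called ranged over 5207 to 7898 (HSL against AP), 8546 to 10651 (HSL against basal) and 6205 to 8352 (AP against basal). The replicate block, which pairs libraries by sample number, called 8374, 11082 and 9072 genes in that order and lost 3 of the list gene calls. DESeq2 called 7179, 10019 and 7930. Scaling by total counts moved the median of all genes to log2 -0.18, -0.10 and 0.14, and the share of calls that were higher to 35.6% (49.6% with TMM), 45.8% (47.7%) and 57.6% (48.2%). The correlation of the summed 10 genes with fibroblast markers reversed to 0.65 in HSL and -0.09 in basal libraries with Col1a1, Col1a2 and Col3a1 alone, was -0.30 in HSL and 0.86 in basal libraries without 2 libraries, and without Dcn and Scara5 was -0.35 in HSL, 0.97 in AP and 0.66 in basal libraries; the cause was not tested. With the longest transcript as length, 8 of the chain ratio medians moved and 10 did not. All 300 recomputed fold changes of the 10 genes kept their direction. The genes were picked from these levels and the alternatives reuse the same libraries, so this is description and no test. Of list gene calls 4370 were kept and 283 lost over all alternatives, and none reversed. Counts at 0 in all libraries of a population set only a lower bound.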
